A study of Homo sapiens with 3 samples.

Results

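The mRNAs of 7 protein complexes were compared subunit by subunit. Each complex has a single listed subunit whose gene lies in a region amplified in the neuroblastoma cell line NGP, as assigned from copy number arrays. The 49 genes were listed by complex, and a gene was measured where a probe set of the array names that gene alone. This left 47 genes with 109 probe sets, of 19775 genes measured in all. They are the 7 amplified members and 40 of the 42 listed partners, which lie outside the amplified regions. ANAPC1 and TCP1 each have 3 probe sets that name further genes, and no value is given for them. The amplified members are CNOT2, NUP107, CPSF6 and CCT2 at 12q15, and ANAPC5, VPS33A and KNTC1 at 12q24.31. The samples were untreated cells of NGP, untreated cells of IMR-32, another neuroblastoma line, in which these loci are not listed as amplified, and a Reference pool of 16 cancer cell lines. NGP was grown in RPMI 1640 medium and IMR-32 in Minimum Essential Medium, so that line and medium cannot be told apart. The copy number data were not analysed here.

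The complexes work in separate parts of the cell. The anaphase promoting complex (APC/C) is the ubiquitin ligase that ends mitosis, and the RZZ complex brings dynein and checkpoint proteins to kinetochores before that. CCR4-NOT shortens the poly(A) tails of mRNAs, while cleavage factor I helps to choose where those tails are added. The Y-complex is a building block of the nuclear pore, HOPS tethers late endosomes and lysosomes before they fuse, and the chaperonin TRiC folds actin, tubulin and other proteins inside a double ring. The subunits are largely built in at fixed proportions, and the question asked of the arrays was how far the mRNA of the amplified subunit differs from those of its partners.

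Each sample was hybridized to 1 array, and the deposited values are MAS5 signal intensities on a linear scale (median 98.8 in NGP, 89.9 in IMR-32 and 119 in the pool, over 54675 probe sets). Expression ratios were calculated as log2 ratios, and the value of a gene is the median over its probe sets. With 1 array per sample there is no replicate check and no p-value, and the number of arrays limits the precision. The spread available is that between probe sets of a gene, with a standard deviation (SD) of 1.41 for NGP over Reference, 1.28 for NGP over IMR-32 and 1.31 for IMR-32 over Reference. The median over all genes was -0.22, 0.02 and -0.23 in these comparisons. All 8 measured sympathoadrenal marker genes were within the top 7% of ratios in NGP and 5 of them in IMR-32, where TH (signal 103) and DBH (119) were close to the array median. All 5 epithelial markers were within the bottom 7% in both lines, with summed signals of 290.5 in NGP and 383 in IMR-32 against 65350 in the pool. Their part in the ratios over the pool was not tested.

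The amplified member had the highest ratio of its complex in NGP in all 7 complexes, and in 0 of 7 in IMR-32. A gene was called overexpressed within the top 7% of gene ratios of a comparison and underexpressed within the bottom 7%. By construction this is 1384 of 19775 genes (7.0%) at each end, whatever the samples. In NGP over Reference, 6 of 7 amplified members were overexpressed (log2 ratio of 1.84 or more, 3.59-fold) and 0 of 40 partners were over- or underexpressed. The amplified members ranged from 1.52 to 3.95 with a median of 2.82, and the partners from -2.03 to 1.36 with a median of -0.02. The ranges did not overlap, but CCT2 at 1.52 and VPS16 at 1.36 were close to each other. They did overlap with quantile-normalized arrays (CCT2 1.38, VPS16 1.51) and with the brightest probe set of each gene (CPSF6 0.77, NUDT21 1.37). Among all genes the amplified members lay between percentile 90.6 and 99.4, and the partners between 12.8 and 89.0.

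In NGP over IMR-32, 5 of 7 amplified members were within the top 7% (7.0% of all genes, cut-off 1.95), with CPSF6 (1.64) and CCT2 (1.65) below it, and 0 of 40 partners lay past either cut-off. The amplified members ranged from 1.64 to 3.59 (median 2.82) and the partners from -1.19 to 0.71 (median -0.18). In IMR-32 over Reference, 0 of 7 amplified members and 0 of 40 partners were within the top 7% (cut-off 1.68) or the bottom 7% (cut-off -2.83), at a background of 7.0% at each end. There the amplified members (-0.44 to 0.72, median 0.20) lay inside the range of the partners (-1.71 to 1.18, median 0.25). The 3 comparisons share arrays in pairs and are not independent of each other.

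**Figure D1:**
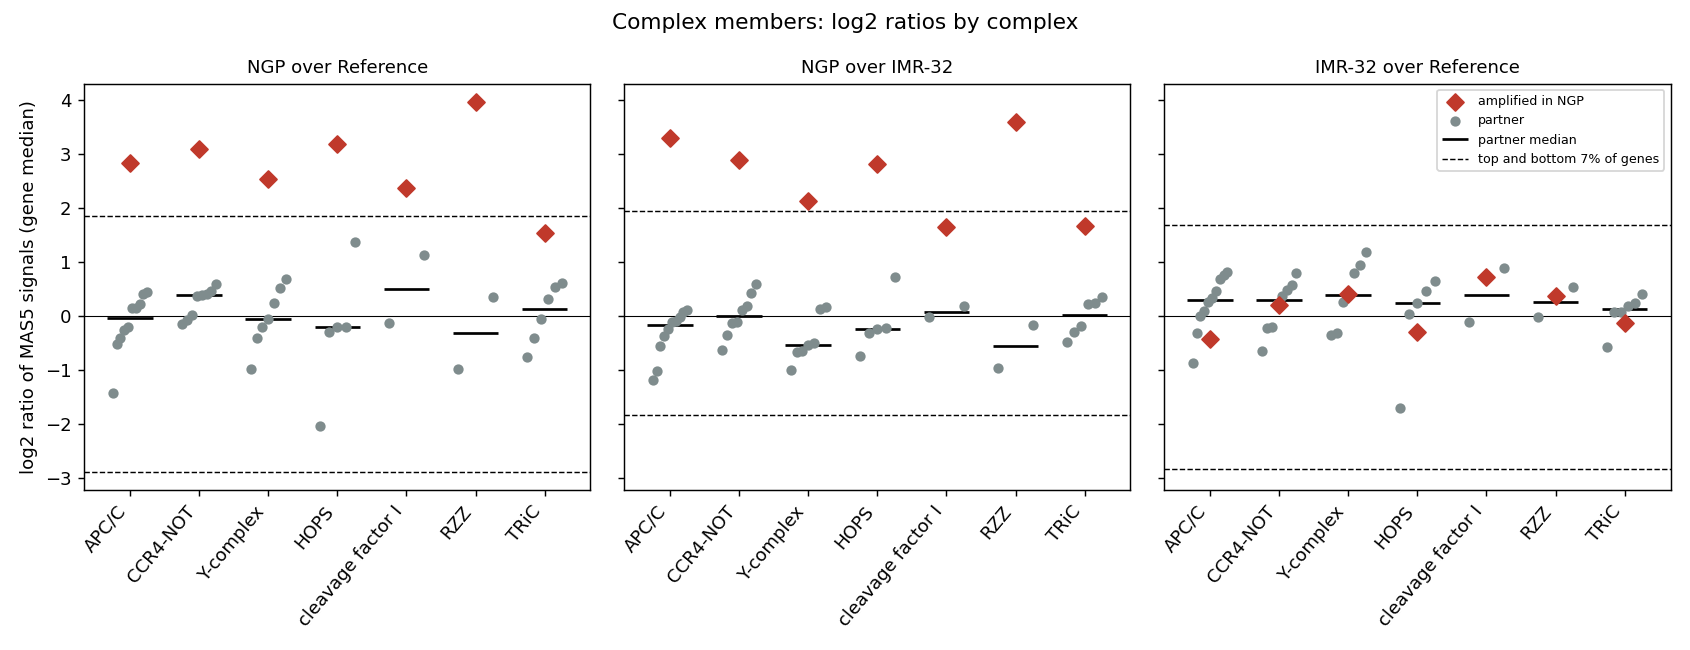
Log2 ratios (y-axis) of each measured gene by complex (x-axis) for NGP over Reference, NGP over IMR-32 and IMR-32 over Reference. Diamonds are the genes amplified in NGP, circles their partners, short lines the partner medians and dashed lines the top and bottom 7% of all genes. The 7 diamonds lie above all circles of their complex in the panels with NGP, and among the circles in IMR-32 over Reference.

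At the level of probe sets, 19 of the 20 probe sets of the amplified members had their highest signal in NGP, and 18 were higher than in the pool by at least 1 on the log2 scale. The exception was a CNOT2 probe set with signals of 56.4 in NGP, 64.0 in IMR-32 and 64.1 in the pool, below the median of each array. Of the 89 probe sets of the partners, 26 had their highest signal in NGP, 8 were higher and 6 lower by at least 1 on the log2 scale than in the pool, and 2 lay past the upper cut-off for genes and 1 past the lower. The 4 probe sets of amplified members with pool signals above 10000, which belong to ANAPC5 and CCT2, had ratios of 1.28 to 2.22 in NGP and NGP signals of 43334 to 68037. The other 15, without the dim CNOT2 probe set, had ratios of 0.77 to 4.32 and a median of 3.18. The ratio shares the pool signal with this division, and whether the brightest signals are compressed was not tested.

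**Figure D2:**
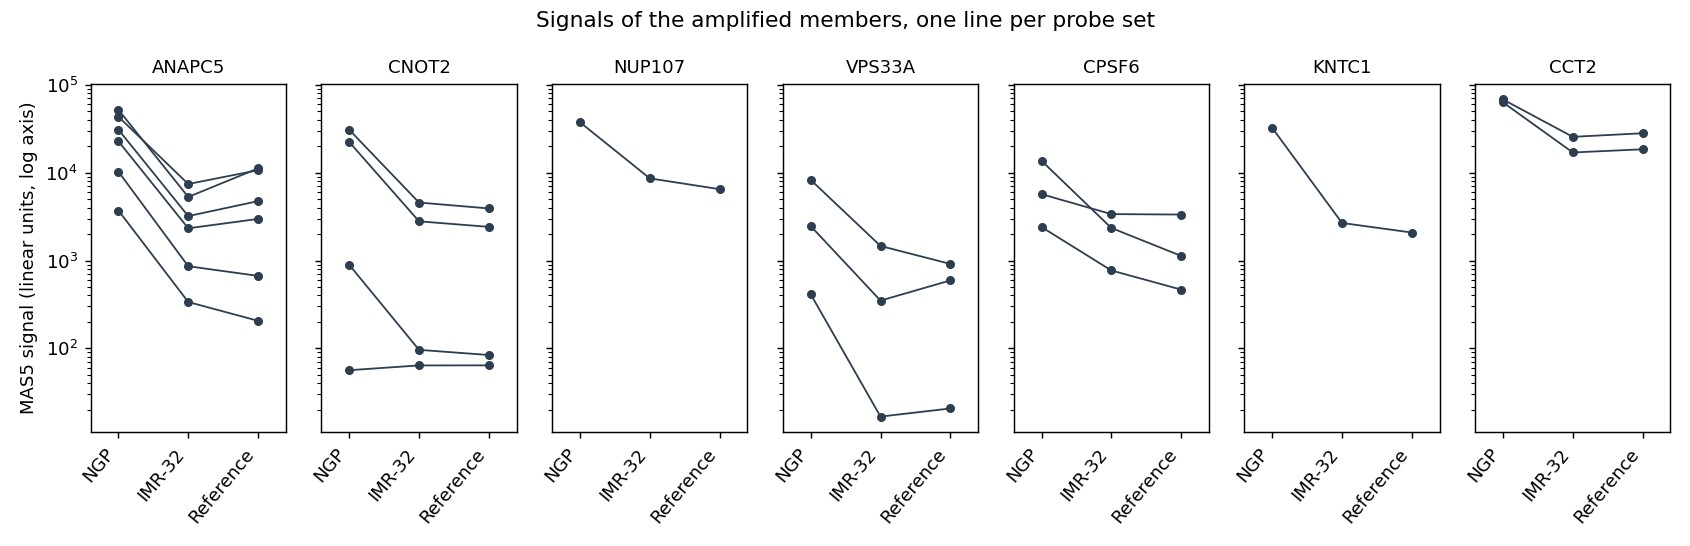
MAS5 signals (y-axis, logarithmic) of every probe set of the 7 amplified members on the NGP, IMR-32 and Reference arrays (x-axis), with 1 line for each probe set. All lines but the dim CNOT2 probe set have their highest point in NGP, and the signals in IMR-32 and the pool are close to each other.

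In the APC/C, ANAPC5, a subunit of the platform that joins the catalytic and the substrate-binding arms, stood 2.85 above the median of its 10 measured partners in NGP over Reference. Its brightest probe set (by the mean log2 signal over the 3 arrays, as for all genes given here) had signals of 43334 in NGP, 7424 in IMR-32 and 10664 in the pool. NGP alone was high, and the IMR-32 signal was below that of the pool. All 6 ANAPC5 probe sets were higher in NGP than in the pool, by 2.02 to 4.17, with a gene value of 2.82 (7.05-fold), and they were higher than in IMR-32 by 2.55 to 3.58 (gene value 3.29). In IMR-32 over Reference ANAPC5 was at -0.44, next to the lowest of the complex, from probe sets between -1.08 and 0.71.

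The APC/C partners kept close to the pool in NGP, with 5 above and 5 below 0. The highest was CDC16, one of the subunits with tetratricopeptide repeats that form the arm holding the coactivator, at 0.45. Its brightest probe set had signals of 3163 in NGP, 3194 in IMR-32 and 2317 in the pool, and the lines were level. The other subunits of this arm were at -0.41 for CDC27, 0.15 for CDC23 and 0.40 for ANAPC7. The 4 CDC27 probe sets ranged from -0.61 to 0.47, and the brightest was the one at 0.47, close to CDC16. The lowest partner was ANAPC13, a small subunit that steadies this arm, at -1.43. This value is the middle of a bright probe set (5224 in NGP, 8267 in IMR-32 and 7321 in the pool, log2 ratio -0.49) and one below the median of each array (10.7, 14.7 and 55.3, log2 ratio -2.37).

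The catalytic subunits of the APC/C were also far below ANAPC5 in ratio. ANAPC2, the cullin subunit, was at -0.51 in NGP and 0.67 in IMR-32 over Reference, and ANAPC11, the RING subunit that receives the ubiquitin-loaded enzyme, at 0.23 and 0.32. ANAPC10, which helps to bind the degron of substrates, was at 0.14 in NGP, and ANAPC4, which sits beside ANAPC5 in the platform, at -0.21. CDC26, a chaperone-like partner of CDC16, was at -0.26. Set directly against IMR-32, 8 of the 10 partners were lower in NGP, down to -1.19 for ANAPC2 (signals of 585 in NGP, 1330 in IMR-32 and 835 in the pool) and -1.02 for CDC27. ANAPC7 lies on the long arm of chromosome 12 outside the amplified regions, and was lower in NGP than in IMR-32 by 0.37 (-0.37).

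In the RZZ complex, KNTC1, the large subunit also known as ROD, had the highest ratio of all 47 genes. Its single probe set had signals of 32238 in NGP, 2675 in IMR-32 and 2082 in the pool. The IMR-32 and pool signals were near each other, and the NGP signal was 15.5-fold that of the pool (log2 ratio 3.95) and 12.1-fold that of IMR-32 (3.59). KNTC1 was number 110 of the 19775 genes in NGP over Reference.

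Its partners differed from KNTC1 and from each other. ZWILCH, which binds KNTC1, had signals of 4768 in NGP, 4912 in IMR-32 and 3666 in the pool in its brighter probe set, with gene values of 0.35 in NGP and 0.52 in IMR-32 over Reference. ZW10, the subunit that recruits dynein and dynactin, had signals of 563 in NGP, 1092 in IMR-32 and 1108 in the pool. Here IMR-32 was close to the pool (-0.02) and NGP was lower (-0.98). ZW10 lies on the distal part of 11q, a region assigned as lost in NGP from the copy number arrays. KNTC1 stood 4.27 above the median of both partners in NGP over Reference and 3.60 above ZWILCH alone, against 0.11 above the median in IMR-32 over Reference.

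In CCR4-NOT, CNOT2, which pairs with CNOT3 to form the NOT module, had signals of 30768 in NGP, 4569 in IMR-32 and 3916 in the pool in its brightest probe set. Of its 4 probe sets, 3 were higher in NGP by 2.97 to 3.41 than in the pool, and the gene value was 3.09 (8.53-fold), 2.71 above the median of 8 partners. In IMR-32 over Reference CNOT2 was at 0.20, in the middle of the complex. CNOT3, the other protein of the module, was at -0.08 in NGP and -0.20 in IMR-32 over Reference, with signals of 504 in NGP, 427 in IMR-32 and 491 in the pool in its brightest probe set.

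The remaining CCR4-NOT genes lay between -0.16 and 0.59 in NGP over Reference by gene value. Their probe sets were more scattered, from -1.21 to 1.15 for CNOT4 and from 0.01 to 1.93 for CNOT7. CNOT1, the scaffold on which the modules assemble, was at 0.39. The deadenylase subunits of the CCR4 type were at 0.45 (CNOT6) and 0.37 (CNOT6L), and those of the CAF1 type at 0.40 (CNOT7) and 0.59 (CNOT8). CNOT8 was the highest partner, and the signals of its brightest probe set were 2251 in NGP, 2093 in IMR-32 and 1497 in the pool. The lowest was CNOT4, a ubiquitin ligase loosely bound to the complex, at -0.16 (565 in NGP, 778 in IMR-32 and 601 in the pool), and CNOT10, which binds the amino-terminal part of CNOT1, was at 0.01. CNOT6L, at -0.65 in IMR-32 over Reference, was the lowest of the complex there, and its 5 probe sets in NGP ranged from -0.19 to 1.61. The brightest was the one at -0.19, and the one at 1.61 lay below the median of each array, at 21.9 in NGP and 7.21 in the pool.

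In the Y-complex, NUP107, which joins the long stem of the Y to NUP133, had signals of 37477 in NGP, 8609 in IMR-32 and 6487 in the pool from its single probe set. The ratio was 2.53 (5.78-fold) over the pool and 2.12 over IMR-32, and it stood 2.60 above the median of 7 partners in NGP over Reference and 0.02 above it in IMR-32 over Reference. NUP133, its direct binding partner, was the highest partner in both lines, at 0.68 in NGP and 1.18 in IMR-32, with signals of 3809 in NGP, 4037 in IMR-32 and 2120 in the pool. NUP160, at 0.51 in NGP, and NUP85, at 0.24, build the arms of the Y. NUP43, a small propeller protein, was at -0.07 in NGP and 0.94 in IMR-32 over Reference.

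The lowest partner of NUP107 in NGP was SEH1L, a propeller protein bound to NUP85, at -0.98. Its brighter probe set had signals of 3679 in NGP, 4635 in IMR-32 and 4754 in the pool, and the other 376, 742 and 1132 on the same arrays, so that NGP was lowest in both. SEC13, which also serves in the COPII coat of vesicles, was at -0.20. NUP37 lies on 12q outside the amplified regions and was at -0.41, from probe sets at -1.04 and 0.21. In NGP over IMR-32, 5 of the 7 partners were lower in NGP and the partner median was -0.55, against 2.12 for NUP107.

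In HOPS, VPS33A, the subunit of the Sec1/Munc18 family that assembles SNARE proteins, had signals of 8264 in NGP, 1464 in IMR-32 and 915 in the pool in its brightest probe set. All 3 probe sets were higher in NGP, by 2.05 to 4.32 over the pool, and the gene value was 3.18 (9.03-fold), or 3.37 above the median of 5 partners. In IMR-32 over Reference it was at -0.31, from probe sets between -0.76 and 0.68.

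VPS16, the subunit that binds VPS33A directly, had the highest ratio of all 40 partners in NGP, at 1.36. Its probe sets were not alike. The brighter had signals of 1437 in NGP, 1103 in IMR-32 and 960 in the pool (log2 ratio 0.58), and the other lay below the median of each array, at 75.2 in NGP, 36.7 in IMR-32 and 17.1 in the pool (2.14). VPS18, one of the core subunits with a RING domain, had the lowest ratio of all partners in NGP (-2.03) and in IMR-32 (-1.71), which comes from a probe set below the array median in both lines, with signals of 14.9 in NGP, 26.7 in IMR-32 and 210 in the pool. In its brighter probe set VPS18 was at 353 in NGP, 308 in IMR-32 and 419 in the pool (-0.25 in NGP over Reference).

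VPS11, the other core subunit with a RING domain, was at -0.20 in NGP and lies, like ZW10, on distal 11q. VPS39 (-0.29) and VPS41 (-0.20), which in the yeast complex sit at opposite ends and bind a Rab GTPase on the membranes, were also close to the pool in NGP. Without VPS11 the difference between VPS33A and the partner median was 3.42 in NGP over Reference.

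In cleavage factor I, CPSF6, one of the larger subunits, which carries an RNA recognition motif, had probe sets that differed in size of change. The brightest had signals of 5691 in NGP, 3376 in IMR-32 and 3335 in the pool (log2 ratio 0.77), the next 13660, 2348 and 1130 (3.60), and the dimmest 2407, 771 and 467 (2.37) on the same arrays. NGP was highest in all 3. The gene value of 2.37 (5.15-fold) stood 1.87 above the median of both partners, and that over IMR-32 (1.64) stood 1.56 above it.

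NUDT21, the small subunit that recognizes UGUA in the pre-mRNA, lay 1.25 below CPSF6 in NGP over Reference. Its brightest probe set had signals of 13429 in NGP, 9629 in IMR-32 and 5195 in the pool (log2 ratio 1.37), and with the brightest probe set of each gene NUDT21 exceeded CPSF6. The gene values were 1.12 in NGP and 0.89 in IMR-32 over Reference, so that both lines were above the pool by gene value. Another NUDT21 probe set, at 2761 in NGP, 2787 in IMR-32 and 3800 in the pool, was below the pool in both lines (-0.46 and -0.45). CPSF7, the paralogue that takes the place of CPSF6 in part of the complexes, had signals of 2576 in NGP, 2406 in IMR-32 and 2320 in the pool in its brighter probe set and a gene value of -0.13.

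The sequences at the start of the CPSF6 and NUDT21 genes are shown side by side as an amplified member and its partner (RefSeq, GRCh38.p14, from 250 bases before to 50 bases after a transcript start, 5′ to 3′ on the strand of the gene). The CPSF6 window is chr12:69239319-69239618 on the plus strand and the NUDT21 window chr16:56451283-56451582 on the minus strand. Capitals mark the GC box GGGCGG, the ETS core CCGGAAG and the CCAAT box CCAAT on either strand, and no marked letters overlap in the windows shown here.
CPSF6: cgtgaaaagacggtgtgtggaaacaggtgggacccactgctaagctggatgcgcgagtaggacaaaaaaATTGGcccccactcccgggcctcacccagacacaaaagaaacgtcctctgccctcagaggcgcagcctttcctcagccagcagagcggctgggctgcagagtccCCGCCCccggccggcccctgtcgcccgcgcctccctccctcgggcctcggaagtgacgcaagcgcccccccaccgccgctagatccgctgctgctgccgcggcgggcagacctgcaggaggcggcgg
NUDT21: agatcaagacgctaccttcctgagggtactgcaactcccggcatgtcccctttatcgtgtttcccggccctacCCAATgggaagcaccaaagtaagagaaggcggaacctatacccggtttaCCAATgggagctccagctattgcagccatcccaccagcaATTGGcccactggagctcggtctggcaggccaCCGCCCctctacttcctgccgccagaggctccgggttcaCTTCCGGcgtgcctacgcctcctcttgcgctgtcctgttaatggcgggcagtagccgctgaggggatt
The CPSF6 window holds 1 GC box and 1 CCAAT box, and that of NUDT21 1 GC box, 1 ETS core and 3 CCAAT boxes. A match describes these letters only, since the arrays measured transcripts.

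In TRiC, CCT2, the beta subunit of the ring, was the amplified member with the smallest ratio and the highest signals. Its probe sets had signals of 68037 and 63048 in NGP, 25559 and 16969 in IMR-32, and 28084 and 18449 in the pool. In NGP these were number 17 and number 36 of 54675 probe sets, where the highest signal was 76221. The gene value was 1.52 (2.88-fold) in NGP over Reference, below the cut-off of 1.84, and 1.65 in NGP over IMR-32, also below the cut-off. It was -0.13 in IMR-32 over Reference. CCT2 was 1.40 above the median of 6 partners and 0.92 above the highest of them in NGP over Reference, the smallest such differences among the 7 complexes with gene medians.

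The other ring subunits, all needed in equal numbers, were between -0.76 and 0.61 in NGP over Reference. CCT8 (theta) was highest as a gene, with signals of 22348 in NGP, 21550 in IMR-32 and 19345 in the pool in its brighter probe set (log2 ratio 0.21). Its other probe set lay below the median of each array, at 78.3 in NGP, 60.5 in IMR-32 and 38.9 in the pool (1.01). CCT4 (delta) was lowest as a gene, but its brighter probe set had signals of 18870 in NGP, 23344 in IMR-32 and 21537 in the pool (-0.19). CCT3 (gamma) was at 0.53, CCT5 (epsilon) at 0.31, CCT7 (eta) at -0.06 and CCT6A (zeta) at -0.41. In NGP over IMR-32 they spread from -0.48 for CCT6A to 0.34 for CCT3, with a median of 0.01.

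The windows at the gene starts of CCT2 (chr12:69585209-69585508, plus strand) and CCT8 (chr21:29073599-29073898, minus strand) are shown with the same marks. They are the amplified ring subunit and the partner with the highest gene value in NGP over Reference.
CCT2: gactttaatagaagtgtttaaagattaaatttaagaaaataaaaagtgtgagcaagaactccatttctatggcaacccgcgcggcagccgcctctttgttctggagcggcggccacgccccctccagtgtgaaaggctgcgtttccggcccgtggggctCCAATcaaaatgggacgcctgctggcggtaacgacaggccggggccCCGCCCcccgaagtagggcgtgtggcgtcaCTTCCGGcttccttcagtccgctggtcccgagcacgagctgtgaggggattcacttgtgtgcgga
CCT8: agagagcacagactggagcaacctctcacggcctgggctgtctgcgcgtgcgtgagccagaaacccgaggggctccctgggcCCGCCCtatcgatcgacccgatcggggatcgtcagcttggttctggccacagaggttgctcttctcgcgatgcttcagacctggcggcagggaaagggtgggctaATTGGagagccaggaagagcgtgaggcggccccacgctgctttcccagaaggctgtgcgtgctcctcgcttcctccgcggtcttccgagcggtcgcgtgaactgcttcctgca
CCT2 has a second listed start, whose window is not shown. Of the 8 windows found for 5 amplified members, 7 hold a GC box, 2 an ETS core and 5 a CCAAT box. Of the 53 windows found for 37 partners, 38 hold a GC box (71.7%), 14 an ETS core (26.4%) and 19 a CCAAT box (35.8%). Among all 35116 windows of this length the shares were 45.0%, 10.3% and 34.6%. Windows of the same gene can overlap and share a match, as those of ANAPC13 do, so these are shares of windows and not of genes. The median content of G and C was 62.7% in the windows of amplified members, 63.7% in those of partners and 58.7% in all windows. KNTC1 and VPS33A among the amplified members, and CCT6A, CNOT1, CNOT7, NUP43 and VPS18 among the partners, were not matched.

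Across the complexes, the difference between the amplified member and its partner median was largest for RZZ (4.27 in NGP over Reference), followed by HOPS (3.37), APC/C (2.85), CCR4-NOT (2.71), the Y-complex (2.60), cleavage factor I (1.87) and TRiC (1.40). It was larger than the SD between probe sets of a gene (1.41) in 6 of 7 complexes. TRiC, just below it, was above it with dim probe sets left out (1.45, where the SD itself was 1.09) and with the mean of the partners (1.49). Cleavage factor I fell below 1.41 with the brightest probe set (0.0103). In NGP over IMR-32 all 7 differences, from 1.56 to 4.16, were larger than that SD (1.28), but cleavage factor I was at 0.46 with the brightest probe set. In IMR-32 over Reference they lay between -0.72 (APC/C) and 0.33 (cleavage factor I), and 0 of 7 were larger than that SD (1.31). Neighbours in this order, such as CCR4-NOT and the Y-complex, differ by less than the SD. By site, the ratios of the 3 amplified members at 12q24.31 were 2.82 to 3.95 and those of the 4 at 12q15 were 1.52 to 3.09, with an overlap.

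**Figure D3:**
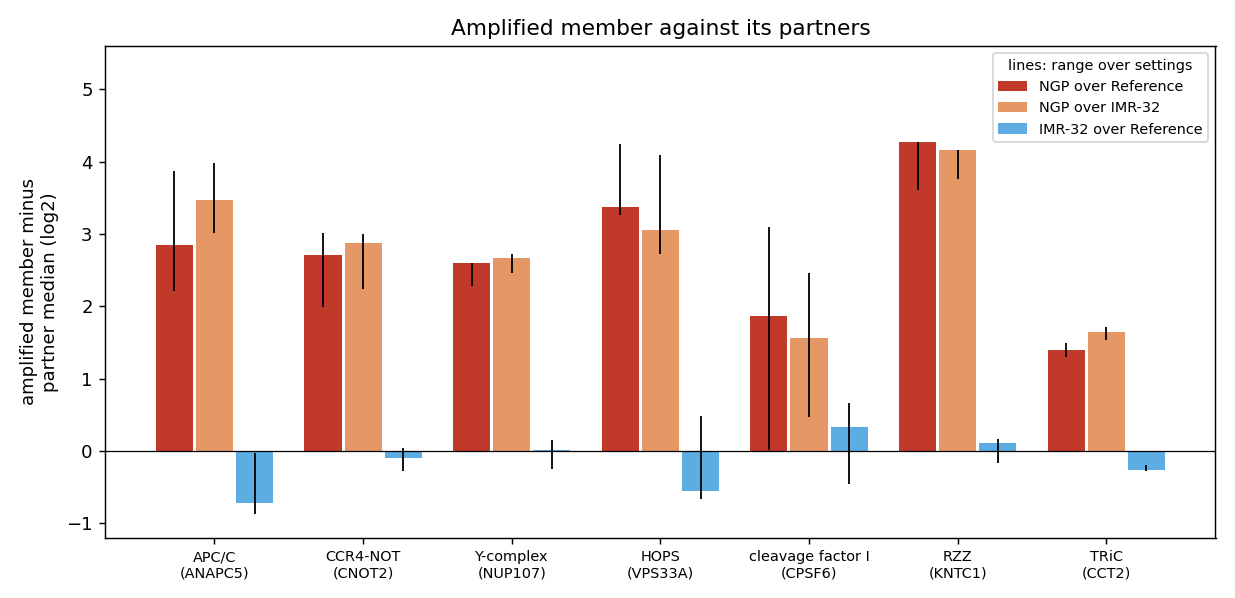
Log2 ratio of the amplified member minus the median of its partners (y-axis) for each complex (x-axis) in NGP over Reference, NGP over IMR-32 and IMR-32 over Reference. Bars are the values as reported, and thin lines span the lowest to the highest value over the processing settings tried, such as 0.0103 to 3.10 for cleavage factor I in NGP over Reference.

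The 40 partners as a group were near the pool in both lines. In NGP over Reference 20 of 40 were above and 20 below 0, and in IMR-32 over Reference 28 were above and 12 below. The median of all genes was below 0 in both (-0.22 and -0.23), and 29 partners in NGP and 32 in IMR-32 were above it. A ratio within 1 of 0 on the log2 scale was found for 36 partners in NGP and 38 in IMR-32. Their SD was 0.64 in NGP over Reference and 0.55 in IMR-32 over Reference, against 1.67 and 1.60 over all genes, which include many dimmer ones. Of the 40 partners, 18 were above the pool in both lines, 10 below it in both, 2 above it in NGP alone (CNOT1 and CNOT6L) and 10 above it in IMR-32 alone. These are gene values, and the brightest CNOT6L probe set was below the pool in NGP (-0.19). Set directly against IMR-32, 27 partners were lower and 13 higher in NGP, with a median of -0.18, against 0.02 over all genes. Partners on 12q outside the amplified regions, ANAPC7 and NUP37, had a median of -0.01 in NGP over Reference, that of VPS11 and ZW10 on distal 11q was -0.59, and that of the other 36 was 0.07.

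**Figure D4:**
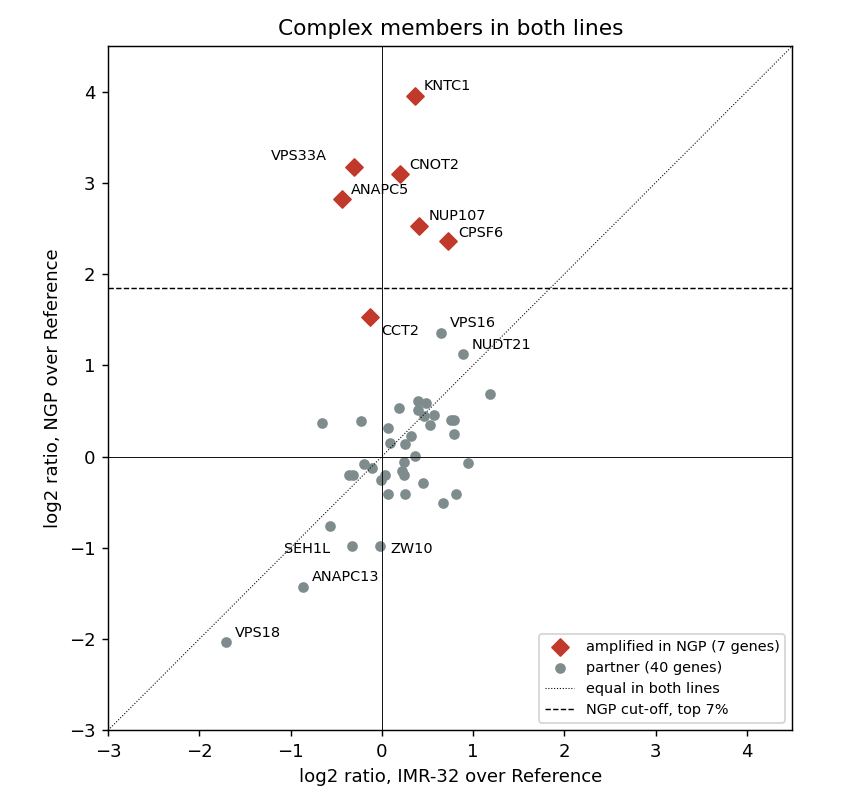
Log2 ratio over Reference in NGP (y-axis) against that in IMR-32 (x-axis) for the 7 amplified members (diamonds) and 40 partners (circles), with the line of equal values dotted and the NGP cut-off of 1.84 dashed. Both axes share the pool array. The diamonds lie high above the line of equal values, 6 of them above the cut-off, while the circles lie near it.

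Other genes of the same pathways had a median close to the pool in NGP. Of 41 listed coactivators, enzymes, inhibitors and further subunits, 39 were measured, and 0 lay within the top or bottom 7% in each of the 3 comparisons (7.0% of all genes at each end). Their medians were 0.11 in NGP over Reference, -0.03 in NGP over IMR-32 and 0.12 in IMR-32 over Reference. The genes ranged from -1.94 to 0.91 in NGP over Reference and from -1.26 to 1.55 in NGP over IMR-32. ANAPC15, listed with the APC/C, was the highest in NGP over IMR-32, above all 40 partners (highest 0.71). Over Reference it was at 0.36 in NGP and -1.19 in IMR-32. CDC20, the coactivator that turns on the APC/C at anaphase, was at -0.31 in NGP and -1.24 in IMR-32 over Reference, and SPDL1, the adaptor through which RZZ recruits dynein, at 0.16 and 0.61. The lowest in NGP was TOB1, an antiproliferative adaptor of CCR4-NOT, at -1.94. Proliferation genes, which could move with the mitotic complexes, had medians of 0.44 in NGP and 0.60 in IMR-32 over Reference over 12 genes, of which 1 (MCM6, 1.88) passed the cut-off in NGP and 0 in IMR-32. The part of growth rate in the ratios was not tested.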

How the data were processed

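The authors made the deposited signal intensities from Affymetrix U133 Plus 2.0 arrays by MAS5 as implemented in the affy package (version not given in the sources used here). The values are linear, and every array was scaled to the same trimmed mean of 500, leaving out 2% of probe sets at either end. Of 54675 probe sets, 62 controls were left out, and of the others the 41091 naming 1 gene symbol were used (1801 name several and 11721 none in the annotation used here). Of these, 41037 were matched by gene ID to the RefSeq gene table (GRCh38.p14) for current symbols, and the rest kept their symbol. A log2 ratio with no pseudocount was formed for each probe set, and a gene took the median of its probe sets. Partner medians and the amplified member's difference from them were computed per complex. No test was run, since there is 1 array per sample. All measured members are named, with signals for the amplified members and for the highest and lowest partner of each complex. Members, lists and rules were chosen with earlier results of these data known. The alternatives were median centring, quantile normalization, log2(signal + 32), a filter on dim probe sets (where the higher of both signals is under the median of its array), the mean or the brightest probe set in place of the median, a filter on probe sets named _s_at or _x_at, cut-offs of 5% and 10% or over all probe sets, the mean of the partners, and partners on lost 11q left out. Scripts were tested on simulated data and used Python 3.11.15, numpy 2.4.6, pandas 2.3.3 and matplotlib 3.10.9.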

Additional observations from a re-analysis of the deposited data

Results flagged for a closer look

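Opposite signs in the lines, over the same pool array, drew attention to 5 results. Each rests on 1 array per line, and the differences between the lines were not tested. ANAPC5 had a log2 ratio over Reference of 2.82 in NGP and -0.44 in IMR-32, and VPS33A one of 3.18 in NGP and -0.31 in IMR-32. The amplified member minus the partner median over Reference was 2.85 in NGP and -0.72 in IMR-32 for APC/C, 3.37 in NGP and -0.55 in IMR-32 for HOPS, and 2.71 in NGP and -0.09 in IMR-32 for CCR4-NOT. All of the IMR-32 values are smaller in size than the spread (SD) of probe sets within genes, 1.31, so their sign is not firm. VPS33A was at 0.68 in IMR-32 with its brightest probe set, and ANAPC5 at 0.54 in IMR-32 without _s_at and _x_at probe sets.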

How the results depend on the processing

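No paired analysis was possible because there is 1 array per sample, and for the same reason none could be left out. Of 168 differences between an amplified member and its partners under the alternatives, 167 moved by less than the standard deviation between probe sets, and 1 moved by more. Part of the 168 could not move. Median centring leaves a difference within a complex unchanged, and the mean of 2 partners is their median. The allowance is also wide, and HOPS in IMR-32 over Reference went from -0.55 to 0.48 (brightest probe set) within it. The difference that moved by more was that of cleavage factor I in NGP over Reference. It was 0.0103 with the brightest probe set, against 1.87 as reported, since CPSF6 was then at 0.77 and NUDT21 at 1.37. In NGP over IMR-32 it was 0.46, against 1.56. The CPSF6 call in NGP over Reference was lost there too (5 of 7 amplified members called). CCT2 passed the cut-off in NGP over Reference with log2(signal + 32) and with the top 10%, which gave 7 of 7. In NGP over IMR-32 the same settings gave 7, and the top 5% and the cut-offs over all probe sets 4. Without _s_at and _x_at probe sets KNTC1 and CCT2 have none left, and 5 of the 5 remaining amplified members were called. The amplified member led its complex in NGP over Reference in 7 of 7 under all settings but this one (5) and the brightest probe set (6). In IMR-32 over Reference 1 complex was led by its amplified member with the brightest probe set (VPS33A, 0.68), with the mean over probe sets (CPSF6, 0.60) and without _s_at and _x_at probe sets (CPSF6, 1.06). Partners past a cut-off were 1 in each of 3 settings, namely VPS16 (2.14) in NGP over Reference without _s_at and _x_at probe sets, NUP133 (1.14) in IMR-32 over Reference with log2(signal + 32), and ANAPC2 (-1.14) in NGP over IMR-32 with log2(signal + 32). Of 960 values of single genes, 2 moved by more than that standard deviation, and 0 called values changed sign. A change of sign was counted only for genes called as reported, which were 6 in NGP over Reference and 5 in NGP over IMR-32. Their ratios were 2.12 or more, which left little room for a change of sign. A gene with 1 probe set cannot move with the mean or the brightest probe set. Quantile normalization put the median of all genes in NGP over Reference at -0.07, and the amplified members then ranged from 1.38 to 3.76 and the partners from -1.86 to 1.51, so that the groups overlapped.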
